A study of Homo sapiens with 12 samples.

Results

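The genes described here are 9 complement components and regulators: C1R, C1S, SERPING1, C3, CFB, CFI, CD46, CD55 and CD59. They were taken by symbol from the deposited gene table as a named set, and each symbol matched a single gene identifier, giving 9 of 60612 genes. Expression was measured by sequencing polyadenylated RNA in 12 libraries, 4 in each of 3 groups, from LX2, an established line of human hepatic stellate cells, the collagen-producing pericytes of the liver. Every group was seeded for 24 h and starved of serum for 16 h. The STINGX+TGFβ group then received the compound STINGX at 10 µM for 3 h, followed by TGFβ at 5 ng/ml for 16 h. The TGFβ group received TGFβ at 5 ng/ml for 16 h without STINGX, and the control group was untreated and is labelled with the same 16 h. All 3 groups are labelled wild type. Cells given STINGX without TGFβ were not analysed here, so an action of STINGX on TGFβ-treated cells cannot be told apart from one it would have on any LX2 cell. The labels name no vehicle for the controls. They also do not say that the replicates came from separate cultures of this 1 line, so the spread that the p-values rest on may be technical.

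Complement is a cascade of proteases and their substrates that marks and lyses targets. The proteases C1r and C1s, joined to the recognition molecule C1q, start the classical pathway by cleaving C4 and C2, and SERPING1 encodes C1 inhibitor, the serpin that inactivates them. All pathways meet at C3, whose fragment C3b binds surfaces, and factor B (CFB) joins C3b to form the convertase of the alternative pathway, which amplifies the cleavage of C3. Factor I (CFI) degrades C3b with cofactors such as CD46, CD55 speeds the decay of convertases, and CD59 blocks assembly of the membrane attack complex. In the liver, hepatocytes make most of the circulating complement, and mesenchymal cells also transcribe several components. Interferon, interleukin-1, interleukin-6 and related cytokines are known inducers of C3, CFB, C1R, C1S and SERPING1 through STAT, NF-κB and C/EBP factors.

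Deposited estimated counts summed to between 58174812 and 70787741 in STINGX+TGFβ libraries, between 54035320 and 63193549 in TGFβ libraries and between 64151449 and 66738764 in control libraries. Values are given as counts scaled to a common library total (CPM, with TMM scaling) unless FPKM, a level per transcript length, is named. The share of counts on mitochondrial genes ran from 8.16% to 8.46% with STINGX+TGFβ, from 8.77% to 9.46% with TGFβ and from 10.0% to 11.3% in controls. Of 10 stellate cell markers, LRAT and DES had a count of 0 in every library, and the 10 summed to between 1711 and 1747 CPM with STINGX+TGFβ, between 6478 and 6753 CPM with TGFβ and between 2433 and 2479 CPM in controls. COL1A1 made up most of that sum, at 1643, 6364 and 2306 CPM on average in STINGX+TGFβ, TGFβ and control libraries. Of the 8 tested stellate markers 4 rose with TGFβ against control (COL1A1, PDGFRB, PDGFRA and ACTA2) and 4 fell (DCN, LUM, NGFR and HAND2). Of 10 hepatocyte markers, ALB, APOB, TTR and FGB had a count of 0 in every library, and the sum ran from 3.84 to 4.02 CPM with STINGX+TGFβ, from 5.05 to 6.62 CPM with TGFβ and from 7.99 to 10.5 CPM in controls, mostly SERPINA1. The 8 macrophage and leukocyte markers summed to between 74.7 and 90.1 CPM with STINGX+TGFβ, between 30.2 and 35.6 CPM with TGFβ and between 72.8 and 80.8 CPM in controls, with none at 0 in every library. CD68 made up most of that sum, at 75.8, 24.4 and 59.6 CPM on average with STINGX+TGFβ, with TGFβ and in controls. CSF1R had 3.47, 6.03 and 1.24 CPM in the same order, highest with TGFβ, where CD68 was lowest. Both CD68 and CSF1R were higher with STINGX+TGFβ than in controls. CD14 had 2.30, 2.42 and 15.7 CPM. Sums for 6 endothelial markers were 2.75 to 3.84, 4.18 to 5.10 and 6.12 to 6.45 CPM in STINGX+TGFβ, TGFβ and control libraries, with 1 of the 6 at 0 in every library. Sums for 4 cholangiocyte and epithelial markers were 29.3 to 30.7, 56.5 to 65.1 and 44.6 to 48.7 CPM in the same order, with none at 0 throughout. The part of these differences in the results below was not tested.

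The secreted components and regulators fell with TGFβ, and no change was called for the membrane regulators. For CD59 this split is one of calls and not of size. Its uncalled log2 fold change of -0.31 ± 0.16 (SE) was larger than the called -0.28 ± 0.05 of SERPING1. Of the 9 genes, 6 fell in TGFβ-treated cells against controls (C3, CFB, C1R, C1S, CFI and SERPING1), none rose, and 3 did not pass the test (CD46, CD55 and CD59). Over all 21328 genes tested, 12.8% were called lower, 13.2% higher and 26% in either direction. The median log2 fold change of the 9 genes was -0.84, beside 0.00 for all genes tested. TGFβ libraries lay wholly below the controls for the same 6 genes, where 13.1% of all genes did. C3 and CFB had the largest changes of the 9, a 4.57-fold and a 3.16-fold lower level. In bulk RNA, fewer cells transcribing a gene and less of its RNA per cell cannot be told apart.

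None of the 9 genes was called higher when STINGX was given before TGFβ, and CFB, CD59 and SERPING1 were lower than with TGFβ alone. Against TGFβ alone, 5 fell (CFB, CD59, SERPING1, C3 and C1R), none rose, and 4 did not pass (C1S, CFI, CD46 and CD55), where 13.8% of all genes were called lower, 13.7% higher and 27.5% in either direction. STINGX+TGFβ libraries lay wholly below the TGFβ libraries for 4 genes (C3, CFB, C1R and SERPING1), where 15.7% of all genes did. CFB fell 2.1-fold and the other 4 by between 1.28-fold and 1.60-fold. Against controls, 7 of the 9 were lower with STINGX+TGFβ (all but CD46 and CD55), where 17% of all genes were called lower, 17.2% higher and 34.2% in either direction. Those 7 were also wholly below the controls, where 16.7% of all genes were. The median log2 fold change of the 9 genes was -0.37 against TGFβ and -0.99 against controls, beside 0.01 and 0.00 for all genes. These 2 comparisons share the STINGX+TGFβ libraries, and that against TGFβ shares the TGFβ libraries with the comparison of TGFβ and control.

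**Figure D1:**
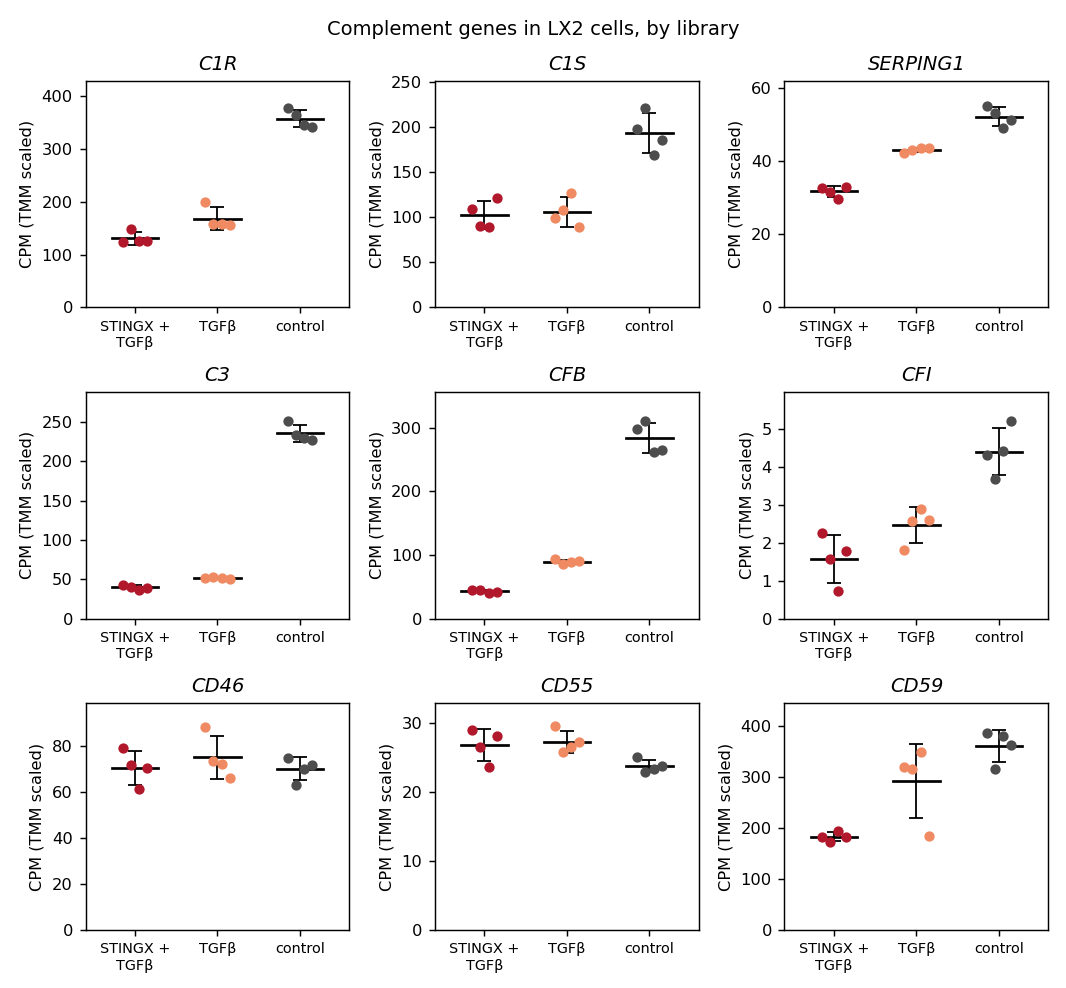
Expression of the 9 complement genes in each library (CPM on TMM-scaled library sizes), with STINGX+TGFβ, TGFβ and control libraries from left to right; points are libraries, the long bar is the mean and the whiskers are 1 SD of 4 libraries. C3 and CFB show 3 levels that do not overlap, CD46 shows none apart, and 1 TGFβ library of CD59 lies at 184 CPM beside the STINGX+TGFβ libraries.

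**Figure D2:**
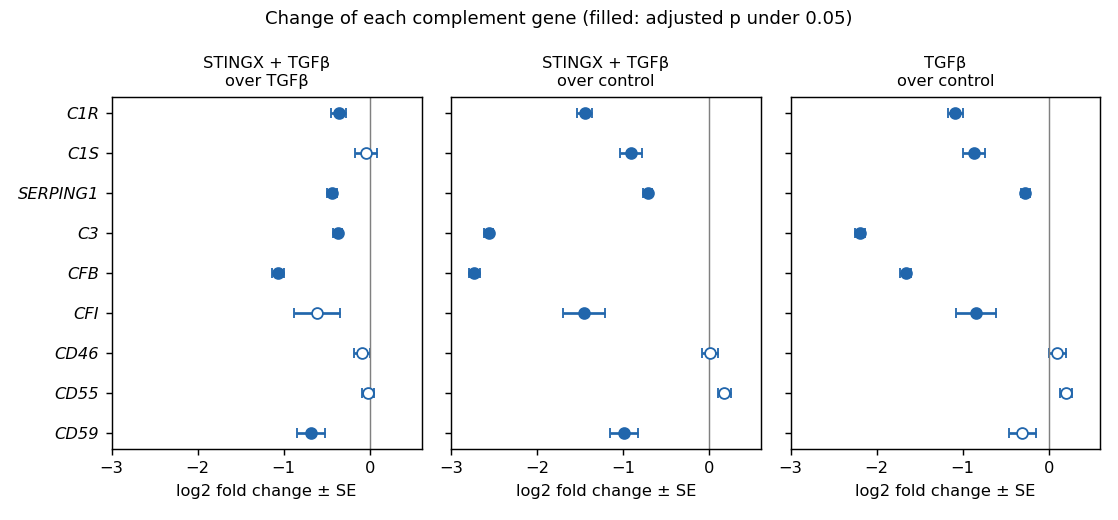
Log2 fold change of each complement gene with its standard error in the 3 comparisons, from edgeR's quasi-likelihood fit to all 12 libraries; filled points have an adjusted p under 0.05. The changes against control reach -2.73 for CFB with STINGX+TGFβ and -2.19 for C3 with TGFβ, while CD46 and CD55 stay within 0.20 of 0 in all 3 panels.

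The C1 proteases and their inhibitor were all lower with TGFβ than in controls. C1R (ENSG00000159403) lies on the minus strand of chromosome 12, from 7080214 to 7092493 in GRCh38, and encodes the protease that activates C1s. It had 124, 149, 125 and 126 CPM in STINGX+TGFβ libraries, against 200.2, 159, 158 and 156 CPM in TGFβ libraries and 377, 365, 346 and 342 CPM in control libraries. The 3 groups did not overlap, and 1 library in each treated group, STINGX+TGFβ replicate 2 and TGFβ replicate 1, stood above its other replicates. The log2 fold change was -1.09 ± 0.09 (SE, n = 4 each) for TGFβ over control, with an adjusted p of 9.58e-07 from edgeR's quasi-likelihood test with Benjamini-Hochberg adjustment, which also gave every adjusted p that follows unless another tool is named. For STINGX+TGFβ it was -0.36 ± 0.09 over TGFβ (adjusted p = 0.00675) and -1.45 ± 0.09 over control (adjusted p = 6.14e-08).

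The C1R difference between STINGX+TGFβ and TGFβ depended on how minor transcripts were counted. C1R-202 (ENST00000536053), singled out after its values were seen, held 5.23% of the C1R count. Its estimated counts were 0 in all 4 STINGX+TGFβ libraries, against 4361, 934, 0 and 0 in TGFβ libraries and 1568, 0, 0 and 1888 in control libraries. Without it, C1R had 124, 149, 125 and 126 CPM with STINGX+TGFβ, against 128, 143, 158 and 156 CPM with TGFβ and 352, 365, 346 and 314 CPM in controls, so that the treated groups overlapped. The log2 fold change of STINGX+TGFβ over TGFβ was then -0.16 (adjusted p = 0.175). C1R-214 held 2071 counts in STINGX+TGFβ replicate 2 and between 259 and 331 in the other libraries of that group. With C1R-214 alone left out the change was -0.45 (adjusted p = 0.000526), and with C1R-202 and C1R-214 both left out it was -0.24 (adjusted p = 0.0198). These settings were chosen after seeing the data. On the whole C1R count, 7 of 11 other settings called the difference, with adjusted p from 0.000949 to 0.109. It was not called in limma on log2(FPKM + 1) (adjusted p = 0.0603) or with library totals alone (adjusted p = 0.0529).

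The promoter windows of C1R are shown because C1R-202 has a start site of its own. Windows run from 250 bases before to 50 bases after a start in RefSeq (GRCh38.p14), 5′ to 3′ on the gene's strand. Capitals mark matches to any of 5 motifs searched on both strands: the κB motif, GAS (TTCNNNGAA), the interferon-stimulated response element (ISRE), C/EBP (TTGCNNAA) and AP-1 (TGANTCA). GAS is bound by STAT dimers and ISRE by interferon-activated complexes with an IRF subunit. The first of the C1R windows, on the minus strand at chr12:7092396-7092695, starts where C1R-215 does.
C1R at C1R-215: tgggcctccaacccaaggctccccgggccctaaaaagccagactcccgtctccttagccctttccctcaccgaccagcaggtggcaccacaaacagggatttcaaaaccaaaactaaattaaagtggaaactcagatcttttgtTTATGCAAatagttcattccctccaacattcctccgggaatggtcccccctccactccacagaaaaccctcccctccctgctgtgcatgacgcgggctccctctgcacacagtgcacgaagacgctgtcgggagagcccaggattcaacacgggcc
The other, on the minus strand at chr12:7091844-7092143, starts 1 base from C1R-202.
C1R at C1R-202: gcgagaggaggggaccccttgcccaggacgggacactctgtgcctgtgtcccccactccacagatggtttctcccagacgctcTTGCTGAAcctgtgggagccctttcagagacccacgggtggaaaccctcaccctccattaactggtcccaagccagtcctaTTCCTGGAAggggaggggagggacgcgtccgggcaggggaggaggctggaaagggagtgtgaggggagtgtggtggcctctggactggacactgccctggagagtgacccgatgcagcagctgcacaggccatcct
The window at C1R-215 held 1 match, to C/EBP on the opposite strand, at positions -106 to -99 from the start. The window at C1R-202 held a C/EBP match at -167 to -160 and a GAS match at -86 to -78, and the matches did not overlap each other. Of 35116 promoter windows of the same length, 10.5% held a C/EBP match, 7.66% a GAS match, 3.57% an ISRE match, 7.71% an AP-1 match and 5.91% a κB match. A match is a string of letters and does not show binding.

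C1S (ENSG00000182326), on the plus strand of chromosome 12 from 6988259 to 7071032, encodes the protease that cleaves C4 and C2. It had 109, 90.4, 89.7 and 122 CPM with STINGX+TGFβ, against 98.8, 109, 127 and 89.2 CPM with TGFβ and 198, 222, 169 and 186 CPM in controls. Every treated library was below every control library, and the treated groups overlapped throughout. TGFβ over control gave a log2 fold change of -0.87 ± 0.13 (adjusted p = 0.000357), and STINGX+TGFβ gave -0.91 ± 0.13 against control (adjusted p = 0.000182). The change of STINGX+TGFβ over TGFβ was -0.04 ± 0.13 (adjusted p = 0.844), and it was 0.10 with library totals alone. C1S overlaps LPCAT3 on the opposite strand over 30219 bases, and use of strand in counting is not given in the sources used here.

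SERPING1 (ENSG00000149131), on the plus strand of chromosome 11 from 57597387 to 57614848, fell in steps that did not overlap. The C1 inhibitor gene had 32.7, 31.6, 29.5 and 32.9 CPM with STINGX+TGFβ, against 42.1, 43.0, 43.5 and 43.5 CPM with TGFβ and 54.9, 53.2, 49.1 and 51.1 CPM in controls. Its log2 fold change was -0.28 ± 0.05 for TGFβ over control (adjusted p = 0.00171), the smallest called change of the 6 genes. STINGX+TGFβ gave -0.44 ± 0.05 over TGFβ (adjusted p = 4.28e-05) and -0.72 ± 0.05 over control (adjusted p = 4.34e-07).

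Inhibitor and protease can be set beside each other per length. The log2 ratio of SERPING1 to C1S in FPKM was -0.78 ± 0.16 with STINGX+TGFβ, -0.38 ± 0.21 with TGFβ and -0.98 ± 0.12 in controls (SD, n = 4 each). All 4 TGFβ libraries, from -0.64 to -0.13, lay above all control libraries, from -1.15 to -0.88. The STINGX+TGFβ libraries, from -0.98 to -0.61, overlapped both. The log2 ratio of C1R to C1S was 0.51 ± 0.31 with STINGX+TGFβ, 0.83 ± 0.31 with TGFβ and 1.05 ± 0.13 in controls, with overlapping libraries. TGFβ replicate 4, the highest at -0.13 for SERPING1 to C1S, had 1969 of its 4640 C1S counts on C1S-208. That transcript, annotated for nonsense-mediated decay, had a count of 0 in all other libraries. These ratios are descriptions and were not tested, and how often other pairs of genes lie apart was not counted.

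C3 (ENSG00000125730), on the minus strand of chromosome 19 from 6677704 to 6730562, had the largest change of the 9 genes with TGFβ. It had 43.2, 39.9, 36.8 and 39.3 CPM in STINGX+TGFβ libraries, against 51.4, 53.0, 51.0 and 50.4 CPM in TGFβ libraries and 251, 234, 230.1 and 226 CPM in control libraries. The 3 groups were apart, with most of the distance between control and either treatment. The log2 fold change was -2.19 ± 0.05 for TGFβ over control (adjusted p = 1.49e-11) and -2.56 ± 0.05 for STINGX+TGFβ over control (adjusted p = 1.37e-11). STINGX+TGFβ over TGFβ gave a smaller change of -0.37 ± 0.05 (adjusted p = 0.000164). That change was -0.23 with library totals alone (adjusted p = 0.00217) and -0.19 in limma on log2(FPKM + 1), and it was called in all 11 other settings that kept every library (adjusted p from 8.02e-09 to 0.00927). C3 overlaps GPR108 on the same strand over 649 bases at its 5′ end, and how reads there were divided is not given in the sources used here.

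CFB (ENSG00000243649), on the plus strand of chromosome 6 from 31945650 to 31952084, had the largest change of the 9 genes with STINGX. It had 44.8, 45.4, 39.9 and 41.2 CPM with STINGX+TGFβ, against 93.2, 86.1, 89.2 and 90.8 CPM with TGFβ and 299, 310.3, 262 and 265 CPM in controls. No 2 groups overlapped. TGFβ over control gave a log2 fold change of -1.66 ± 0.06 (adjusted p = 1.20e-09), STINGX+TGFβ over TGFβ gave -1.07 ± 0.06 (adjusted p = 8.37e-08), and STINGX+TGFβ over control gave -2.73 ± 0.07 (adjusted p = 4.18e-11). The CFB promoter window is shown because this gene fell in all 3 comparisons. C3, C1R and SERPING1 did so too, and no window was found for C3 and SERPING1. The CFB window lies on the plus strand at chr6:31945845-31946144, with capitals as above. Its start is 31 bases from that of CFB-273, the nearest annotated transcript start.
CFB: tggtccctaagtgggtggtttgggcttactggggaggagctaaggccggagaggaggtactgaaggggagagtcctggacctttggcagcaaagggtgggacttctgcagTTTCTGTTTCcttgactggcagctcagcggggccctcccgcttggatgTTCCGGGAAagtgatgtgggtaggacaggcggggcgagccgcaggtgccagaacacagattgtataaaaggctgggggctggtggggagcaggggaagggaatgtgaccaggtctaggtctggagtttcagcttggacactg
It held an ISRE match at -140 to -131 and a GAS match at -92 to -84 from the start, and no match to the other 3 motifs. CFB lies next to C2, its classical pathway counterpart, on the same strand, and their annotated ends overlap by 23 bases.

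CFI (ENSG00000205403), on the minus strand of chromosome 4 from 109740694 to 109802179, was the least expressed of the 9 genes. It had 2.25, 1.58, 0.731 and 1.78 CPM with STINGX+TGFβ, against 1.80, 2.58, 2.91 and 2.61 CPM with TGFβ and 4.33, 3.69, 4.42 and 5.21 CPM in controls. Both treated groups lay below all controls and overlapped each other. TGFβ over control gave -0.84 ± 0.23 (adjusted p = 0.0169), which became -0.71 (adjusted p = 0.0557) without TGFβ replicate 1, the lowest of that group, and was called in all 11 settings with all libraries (adjusted p from 0.00717 to 0.0457). STINGX+TGFβ gave -0.61 ± 0.27 over TGFβ (adjusted p = 0.115) and -1.46 ± 0.24 over control (adjusted p = 0.000443).

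CD46 and CD55, regulators carried on the cell's own membrane, did not pass the test in any comparison. CD46 (ENSG00000117335), the factor I cofactor, lies on the plus strand of chromosome 1 from 207752054 to 207795513. It had 78.9, 71.6, 61.0 and 70.2 CPM with STINGX+TGFβ, against 88.1, 73.3, 71.9 and 66.1 CPM with TGFβ and 74.8, 63.1, 69.9 and 71.7 CPM in controls, and all groups overlapped. The log2 fold change was 0.10 ± 0.10 for TGFβ over control (adjusted p = 0.501), -0.09 ± 0.10 for STINGX+TGFβ over TGFβ (adjusted p = 0.549) and 0.01 ± 0.10 for STINGX+TGFβ over control (adjusted p = 0.942).

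CD55 (ENSG00000196352), the decay accelerating factor, lies on the plus strand of chromosome 1 from 207321532 to 207386804. It had 29, 26.6, 23.7 and 28.1 CPM with STINGX+TGFβ, against 29.5, 25.8, 26.5 and 27.3 CPM with TGFβ and 25.0, 22.9, 23.3 and 23.8 CPM in controls. All TGFβ libraries lay above all control libraries, the only one of the 9 genes with that order, where 13.9% of all genes tested had TGFβ libraries wholly above the controls. The log2 fold change of 0.20 ± 0.07 did not pass the threshold (adjusted p = 0.0621). Of 11 settings with all libraries, 3 called it, within a range of 0.0389 to 0.292. These were DESeq2 (adjusted p = 0.0436), a filter at 1 CPM (adjusted p = 0.0493) and a replicate block (adjusted p = 0.0389). It also passed without STINGX+TGFβ replicate 3 (adjusted p = 0.0384). STINGX+TGFβ gave -0.02 ± 0.07 over TGFβ (adjusted p = 0.843). Over control it gave 0.18 ± 0.07 (adjusted p = 0.0807). That change passed in 4 of 11 settings with all libraries, within a range of 0.0147 to 0.137. The 4 were library totals alone, at 0.25 (adjusted p = 0.0147), and the limma fits on FPKM (adjusted p = 0.0170, 0.0177 and 0.0324). It also passed without STINGX+TGFβ replicate 3, at 0.23 (adjusted p = 0.0228). The windows of CD46 and CD55 are shown as examples without a match to the 5 motifs, and were picked after the search. They lie on the plus strand at chr1:207751788-207752087 and chr1:207321428-207321727.
CD46: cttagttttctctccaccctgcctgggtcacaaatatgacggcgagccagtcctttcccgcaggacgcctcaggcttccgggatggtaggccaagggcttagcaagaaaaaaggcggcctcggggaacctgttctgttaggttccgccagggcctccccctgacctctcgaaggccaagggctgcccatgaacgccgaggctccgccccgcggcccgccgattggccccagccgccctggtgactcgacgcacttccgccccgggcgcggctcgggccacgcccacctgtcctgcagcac
CD55: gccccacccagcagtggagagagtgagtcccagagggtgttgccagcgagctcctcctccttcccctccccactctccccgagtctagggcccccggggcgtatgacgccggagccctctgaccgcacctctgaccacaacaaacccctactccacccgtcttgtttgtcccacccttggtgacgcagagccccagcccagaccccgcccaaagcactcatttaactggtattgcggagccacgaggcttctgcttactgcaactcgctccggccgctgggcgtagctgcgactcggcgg
The CFI window also held no match, although CFI fell with TGFβ, and no window was found for C3, C1S and SERPING1. Over all 35116 windows each motif was matched in 3.57% to 10.5%, so a window without a given match is the usual case. The share without any of the 5 was not counted, and a link between matches and changes was not tested. The 4 windows of CD59 held matches to GAS, C/EBP or AP-1. No match says only that these letters are not in this window.

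CD59 (ENSG00000085063), on the minus strand of chromosome 11 from 33703010 to 33736425, encodes the membrane-anchored inhibitor of the terminal complex and was lower with STINGX than with TGFβ alone. It had 182, 171, 193 and 182 CPM with STINGX+TGFβ, against 319, 316, 349 and 184 CPM with TGFβ and 387, 316, 379.6 and 363 CPM in controls. STINGX+TGFβ libraries lay below all controls and overlapped the TGFβ group through TGFβ replicate 4 alone. With STINGX+TGFβ the log2 fold change was -0.68 ± 0.16 over TGFβ (adjusted p = 0.00858) and -0.99 ± 0.16 over control (adjusted p = 0.000658). Without TGFβ replicate 4 the change over TGFβ was -0.85 (adjusted p = 3.98e-06), and in limma on log2(FPKM + 1) with no filter on low values it was -0.48 (adjusted p = 0.0739, the highest of 11 settings that began at 0.000182). TGFβ over control gave -0.31 ± 0.16 (adjusted p = 0.200), or -0.14 without TGFβ replicate 4 (adjusted p = 0.197).

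Scaling bears on these values most for STINGX+TGFβ against TGFβ. With library totals in place of TMM the median of all genes in that comparison moved by 0.14 on the log2 scale. The small uncalled differences of C1S, CD46 and CD55 changed sign in that setting.

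Levels per length put the 9 genes in a different order in each group. In control libraries C1R (51.6 ± 1.50 FPKM) and CFB (50.2 ± 3.27 FPKM) were highest and overlapped (SD, n = 4). Below them came CD59 at 28.7 ± 2.80, C1S at 25.0 ± 2.43 and C3 at 23.7 ± 0.830 FPKM, each overlapping its neighbour. SERPING1 at 12.6, CD46 at 6.71, CD55 at 3.45 and CFI at 0.753 FPKM followed, each apart from the next. With TGFβ, C1R at 23.3 and CD59 at 22.2 FPKM led, and CFB (15.2 FPKM) and C1S (13.2 FPKM) came after, with overlaps between neighbours. C3, at 4.97 FPKM, then stood below SERPING1 (10.0 FPKM) and CD46 (6.89 FPKM) and above CD55 (3.81 FPKM), all apart. With STINGX+TGFβ, C1R at 19.9 FPKM stood apart at the top, above CD59 at 15.3 and C1S at 14.0 FPKM, which overlapped. SERPING1 at 8.11, CFB at 7.99 and CD46 at 7.13 FPKM could not be ordered, and neither could C3 at 4.23 and CD55 at 4.11 FPKM. CFI was lowest in the treated groups as well, at 0.281 FPKM with STINGX+TGFβ and 0.402 FPKM with TGFβ.

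**Figure D3:**
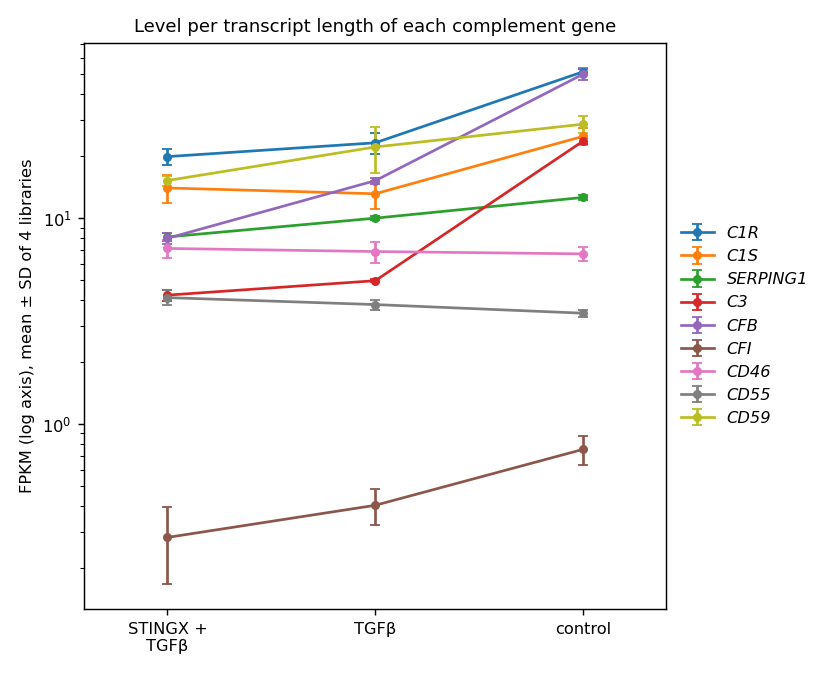
Level per transcript length of each complement gene (FPKM, log axis) in the STINGX+TGFβ, TGFβ and control groups; points are means and whiskers 1 SD of 4 libraries, and lines join the groups of a gene. C3 lies below SERPING1 in both treated groups, CFB is level with SERPING1 with STINGX+TGFβ, and CD46 and CD55 run nearly flat.

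Transcript counts showed which annotated transcripts carried the level of a gene. Of 139 transcripts of the 9 genes, 79 passed the filter. Of these, 11 were called lower and none higher with TGFβ against control, where 1.16% of 79677 transcripts were called lower. That count was 5 without TGFβ replicate 1 and also 5 without TGFβ replicate 4, 7 without control replicate 1, and 7 with a replicate block. With STINGX+TGFβ, 2 were called lower than with TGFβ (1.29% of all transcripts; 1 with RLE scaling and without any 1 of STINGX+TGFβ replicates 2 and 4 and TGFβ replicates 1 to 4) and 11 lower than in controls (1.85%), with none higher. C3 is nearly a single transcript: C3-201 carried 98.5% of its count. It had 3069, 2873, 2227 and 2596 counts with STINGX+TGFβ, against 3000, 3058, 2611 and 2577 with TGFβ and 15517, 14886, 15063 and 15118 in controls. Its log2 fold change was -2.27 ± 0.07 for TGFβ over control (adjusted p = 4.11e-08) and -0.34 ± 0.07 for STINGX+TGFβ over TGFβ (adjusted p = 0.0329).

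CFB was carried by CFB-271, with 86.7% of the count. That transcript had 2743, 2828, 2068 and 2458 counts with STINGX+TGFβ, against 5088, 4536, 4086 and 4211 with TGFβ and 17216, 18036, 14005 and 14536 in controls. It fell like the gene, by -1.68 ± 0.12 for TGFβ over control (adjusted p = 1.42e-05) and -1.10 ± 0.11 for STINGX+TGFβ over TGFβ (adjusted p = 0.000348). C1R was split between C1R-206, annotated as a retained intron with 46.2% of the count, and the protein-coding C1R-215 with 41.3%. Both fell with TGFβ against control, by -1.43 ± 0.21 (adjusted p = 0.00472) and -1.18 ± 0.22 (adjusted p = 0.0164). Neither was called between STINGX+TGFβ and TGFβ, at -0.11 ± 0.21 (adjusted p = 0.908) and -0.29 ± 0.21 (adjusted p = 0.645). SERPING1-201 held 82.6% of the SERPING1 count and was not called by itself, at -0.42 ± 0.22 for each of these comparisons (adjusted p = 0.447 for TGFβ over control and 0.438 for STINGX+TGFβ over TGFβ). C1S was carried by the protein-coding C1S-201, with 66.2% of the count, and C1S-202, with 18.0%. Neither was called for TGFβ over control, at -1.15 ± 0.53 (adjusted p = 0.375) and -0.91 ± 0.41 (adjusted p = 0.354), although the gene was. CD46-212, annotated as a processed transcript, held 39.9% of the CD46 count and was not called in any comparison.

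CD59 had no stable main transcript. CD59-209, annotated as a retained intron, held 41.3% of its count, with 7808, 70, 3759 and 7079 counts with STINGX+TGFβ, against 6564, 7756, 10608 and 1506 with TGFβ and 9361, 9382, 8490 and 14319 in controls. The protein-coding CD59-211 had 5108, 1411, 3834 and 1289 counts with STINGX+TGFβ, against 8128, 8418, 1034 and 32 with TGFβ and 8906, 34, 3144 and 9315 in controls. A transcript not matched in the annotation, ENST00000652678, ran from 0 to 8403 counts across the 12 libraries. TGFβ replicate 4, which was low for the gene, thus had few counts on CD59-209 and CD59-211, 5452 on ENST00000652678 and 1849 on CD59-207, a transcript with 22 or fewer in the other TGFβ libraries. The summed CPM of annotated protein-coding transcripts was 72.7 ± 43.8 with STINGX+TGFβ, 120 ± 88.2 with TGFβ and 145 ± 77.9 in controls (SD, n = 4 each), and those groups overlapped. This sum leaves out transcripts not matched in the annotation, which held 18.1% of the CD59 count. For C3, CFB and SERPING1 the same sum kept the 3 groups apart. In STINGX+TGFβ, TGFβ and control libraries C3 had 38.8 ± 2.46, 50.5 ± 1.21 and 233 ± 10.7 CPM. CFB had 36.6 ± 2.05, 80.6 ± 3.25 and 246 ± 36.7 CPM, and SERPING1 had 29.5 ± 3.55, 40.3 ± 5.08 and 48.6 ± 3.39 CPM. The SERPING1 sum was 31.3 CPM in the highest STINGX+TGFβ library and 32.7 CPM in the lowest TGFβ library. For C1R the coding sums were 56.1 ± 9.91, 92.5 ± 27.9 and 163 ± 54.8 CPM in those groups, and the TGFβ libraries overlapped both the STINGX+TGFβ and the control libraries. CFI coding sums overlapped in the same way, at 0.569 ± 0.544, 2.12 ± 0.875 and 3.21 ± 1.18 CPM. The use of single transcripts within a gene was tested with edgeR's diffSpliceDGE. None of the 79 was called for TGFβ against control, where 1.22% of transcripts were called. C1R-202 alone was called for STINGX+TGFβ against TGFβ (0.992% of transcripts) and against control (1.04%).

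**Figure D4:**
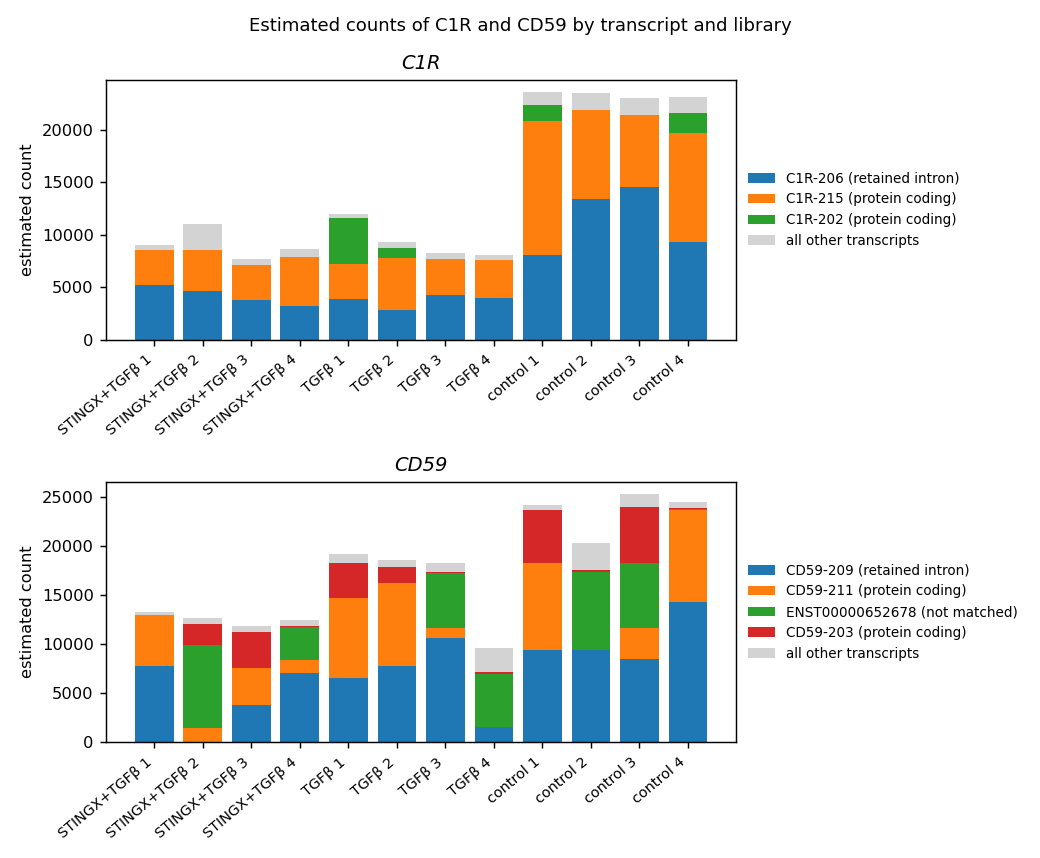
Estimated counts of C1R and CD59 in each library, stacked by transcript, with the STINGX+TGFβ, TGFβ and control replicates from left to right; colours are transcripts with their annotated type and grey is the sum of all others. C1R-202 appears in 4 of the 12 libraries with up to 4361 counts, and the mix of CD59 transcripts changes between replicates of a group.

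The rest of the complement system was read from a list of 50 genes, of which 25 were tested and 15 had a count of 0 in every library. C1QA, C1QB and C1QC, which encode the recognition part of C1, were among those at 0, as were C6, C7, C8A and C8B of the terminal pathway. With TGFβ against control 12 of the 25 fell and 5 rose, with a median log2 fold change of -0.84, beside 0.00 over all genes, of which 12.8% fell and 13.2% rose. Of the 5 that rose, only C1QBP averaged at least 2 CPM, and the others averaged between 0.226 and 0.896 CPM. Some of those that fell were below 2 CPM as well. Genes below 2 CPM are not named here, so the named ones are mostly from the falling side. With STINGX+TGFβ against TGFβ 6 fell and 4 rose (median -0.04), beside 13.8% lower and 13.7% higher over all genes. With STINGX+TGFβ against control 10 fell and 2 rose (median -0.42), beside 17% lower and 17.2% higher over all genes.

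C4A and C4B, which encode the C4 cleaved by C1s, fell in the comparisons in which CFB fell. C4A averaged 4.52 ± 0.546 CPM with STINGX+TGFβ, 8.16 ± 0.297 CPM with TGFβ and 20.2 ± 1.47 CPM in controls (SD, n = 4 each). C4B averaged 4.51 ± 0.532, 8.39 ± 0.673 and 25.3 ± 2.24 CPM in STINGX+TGFβ, TGFβ and control libraries. The pair are near-identical copies, so how reads were divided between them is uncertain. C2, the other substrate of C1s, averaged 17.5 ± 1.96 CPM with STINGX+TGFβ, 22.5 ± 2.43 CPM with TGFβ and 42.9 ± 4.85 CPM in controls. For TGFβ over control the log2 fold changes were -1.31 for C4A (adjusted p = 2.54e-07), -1.59 for C4B (adjusted p = 9.03e-08) and -0.93 for C2 (adjusted p = 2.92e-05). For STINGX+TGFβ over TGFβ they were -0.85 for C4A (adjusted p = 3.71e-05), -0.89 for C4B (adjusted p = 5.52e-05) and -0.36 for C2 (adjusted p = 0.0261).

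Several other genes of the list were not called lower with STINGX+TGFβ than with TGFβ, while C1QBP was. CLU, clusterin, an inhibitor of the terminal complex, averaged 139 ± 10.1, 96.2 ± 6.37 and 185 ± 10.4 CPM in STINGX+TGFβ, TGFβ and control libraries. It fell with TGFβ (log2 -0.94, adjusted p = 2.56e-07) and was higher with STINGX+TGFβ than with TGFβ (0.53, adjusted p = 4.91e-05). C1RL, a C1r-like protease gene that overlaps C1R on the same strand over 2907 bases, averaged 43.2 ± 4.01, 31.8 ± 2.94 and 52.7 ± 3.01 CPM in the same order. It was higher with STINGX+TGFβ than with TGFβ (log2 0.44, adjusted p = 0.00149), against the direction of C1R. ITGAX, a subunit of complement receptor CR4, averaged 3.80 ± 0.0566, 1.063 ± 0.323 and 3.56 ± 0.817 CPM (log2 1.84 for STINGX+TGFβ over TGFβ, adjusted p = 3.53e-05). VTN, vitronectin, and C5 fell with TGFβ, by log2 values of -0.99 (adjusted p = 0.00208) and -0.43 (adjusted p = 0.0474). For STINGX+TGFβ over TGFβ neither was called, at -0.04 for VTN (adjusted p = 0.912) and 0.05 for C5 (adjusted p = 0.834). C1QBP, a C1q-binding protein, rose with TGFβ by 0.23 (adjusted p = 0.0172). It was lower with STINGX+TGFβ than with TGFβ (log2 -0.19, adjusted p = 0.0421).

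**Figure D5:**
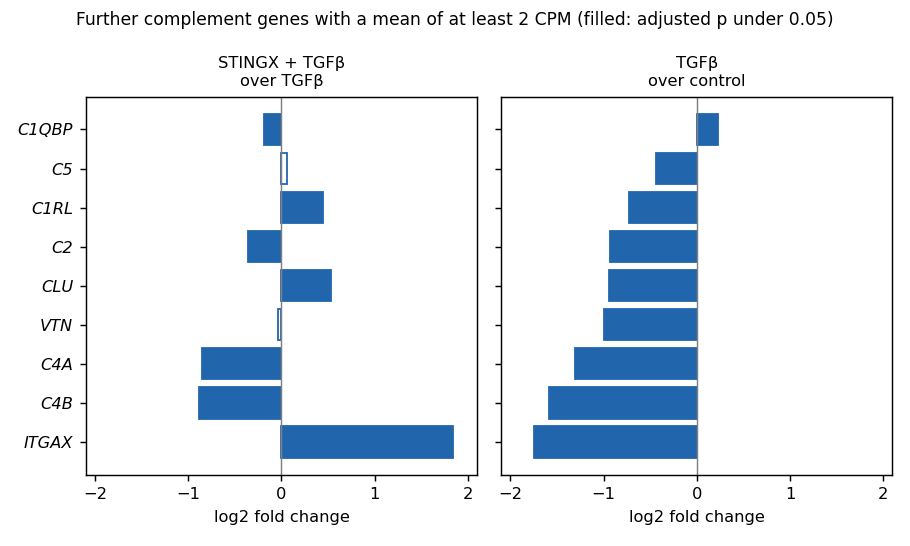
Log2 fold changes of 9 further complement genes with a mean of at least 2 CPM, for STINGX+TGFβ over TGFβ and for TGFβ over control; filled bars have an adjusted p under 0.05. With TGFβ 8 of the 9 fell and C1QBP rose, while with STINGX+TGFβ over TGFβ ITGAX, CLU and C1RL rose and C4A, C4B, C2 and C1QBP fell.

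Genes known to act upstream of complement transcription were read from a list of 24, of which 22 were tested. With TGFβ against control 8 fell and 3 rose, beside 12.8% lower and 13.2% higher over all genes. With STINGX+TGFβ against TGFβ 8 fell and 5 rose (13.8% and 13.7% over all genes), and with STINGX+TGFβ against control 9 fell and 4 rose (17% and 17.2% over all genes). The list's medians were -0.08, -0.01 and -0.26. CEBPD, the transcription factor C/EBPδ, averaged 5.27 ± 0.170 CPM with STINGX+TGFβ, 8.88 ± 1.90 CPM with TGFβ and 44.9 ± 2.65 CPM in controls. Its log2 fold change was -2.33 for TGFβ over control (adjusted p = 1.95e-08) and -0.76 for STINGX+TGFβ over TGFβ (adjusted p = 0.00108). IRF1, the interferon-regulated factor, averaged 72.2 ± 1.88, 136 ± 2.69 and 154 ± 9.46 CPM in STINGX+TGFβ, TGFβ and control libraries, with -0.91 for STINGX+TGFβ over TGFβ (adjusted p = 1.69e-08).

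NFKB1 was higher with TGFβ than in either other group (log2 -0.64 for STINGX+TGFβ over TGFβ, adjusted p = 4.59e-08, and 0.32 for TGFβ over control, adjusted p = 2.56e-05), at 122 ± 4.90 CPM with STINGX+TGFβ, 191 ± 1.73 CPM with TGFβ and 153 ± 2.98 CPM in controls. IFNGR2, a chain of the interferon-γ receptor, had the same order of means, at 72.3 ± 5.81, 113 ± 4.44 and 90.3 ± 6.81 CPM. IL1B averaged 1123 ± 12.1 CPM with STINGX+TGFβ, 337 ± 12.6 CPM with TGFβ and 684 ± 41.0 CPM in controls, and its receptor gene IL1R1 averaged 34.5 ± 0.808, 16.9 ± 1.23 and 32.9 ± 0.748 CPM. OSMR, the oncostatin M receptor, averaged 594 ± 6.83, 294 ± 5.50 and 824 ± 12.8 CPM. For STINGX+TGFβ over TGFβ the log2 fold changes were 1.74 for IL1B (adjusted p = 3.34e-11), 1.03 for IL1R1 (adjusted p = 5.74e-08) and 1.01 for OSMR (adjusted p = 5.57e-11). IL6 averaged 62.7 ± 2.49 CPM with STINGX+TGFβ, 86.3 ± 10.4 CPM with TGFβ and 146 ± 11.9 CPM in controls, lower in each treated group, as C3 and CFB were. Against controls, IL1A and IFNGR1 were higher with STINGX+TGFβ, by log2 values of 0.56 (adjusted p = 0.000516) and 0.69 (adjusted p = 0.0177). IFNB1 and NR1H4, which encodes the bile acid receptor FXR, did not pass the filter.

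Genes closest to each of the 9 in both log2 fold changes, TGFβ over control and STINGX+TGFβ over TGFβ, were sought among 13637 genes by Euclidean distance. LUM, lumican, was nearest to C3 at a distance of 0.14 (log2 fold changes -2.06 and -0.34), followed by the chemokine CXCL6 at 0.20. C1R was nearest to ST3GAL5 (0.04) and IFITM2 (0.07), and C1S to CRABP2 (0.010) and ZSCAN16-AS1 (0.011). CFB had FP671120 (0.10) and FP236383 (0.11) as nearest, CFI had DCHS1 (0.014) and MTCO2P12 (0.06), and SERPING1 had VAMP1 (0.0012) and KLHL36 (0.014). CD59 lay nearest to MMAB (0.014) and to IL7R (0.03), the interleukin-7 receptor. CD46 had RUNDC1 (0.0033) and SYS1 (0.0042), and CD55 had INTS2 (0.0024) and RNF2 (0.0070). The distance covers 2 values over 12 libraries and is a description.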

How the data were processed

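Polyadenylated RNA of LX2 cells was sequenced as read pairs from strand-specific libraries, per the labels' protocols. The submitters' processing notes name cutadapt, HISAT2, StringTie and edgeR with the build GRCh38; their order, settings, annotation and use of strand are not stated there. Deposited were estimated counts (whole numbers) for 60612 genes and 229420 transcripts, and FPKM values per gene, in which a count of 0 is listed at 0.0001. Transcript counts summed to the gene count in every library. Groups follow the labels' titles.

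Genes were tested on the estimated counts with edgeR 4.0.16 in R 4.3.3: filterByExpr (minimum count 10, total 15; 21328 genes, all 9 complement genes among them), TMM scaling, and a robust quasi-likelihood fit to all 12 libraries (9 residual degrees of freedom), with Benjamini-Hochberg adjustment over all genes and a threshold of 0.05. Each SE was taken as the log2 change divided by √F. Common dispersion was 0.0782 (biological coefficient of variation 28.0%). Transcripts were tested likewise (79677), and transcript use with diffSpliceDGE on the older quasi-likelihood form (70977). Alternatives were DESeq2 1.42.0, RLE scaling, library totals alone, other filters, the older fit, the 2 compared groups alone, a replicate block, limma 3.58.1 on log2(FPKM + 1) or log2(FPKM + 0.1), and leaving out each library. FPKM fold changes on these scales understate changes of low genes. Replicate pairs differed beyond counting noise (chi-square over its degrees of freedom 38.4 to 80.8). The scripts were tested on simulated data. Same-numbered libraries did not deviate together, so numbers were not used to pair samples.

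The 9 genes, the gene lists and the motifs were chosen with earlier results of these data known. Named from the lists were the 3 genes with the largest called change in each direction and comparison at a mean of at least 2 CPM, and any complement gene at that mean. For 2 genes that this rule names, values are not reported here. Transcript names follow the GENCODE annotation of GRCh38, and transcripts with at least 10% of their gene's count were described. Promoter windows were found for 6 of the 9 genes (11 windows of 300 bases).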

Additional observations from a re-analysis of the deposited data

Results flagged for a closer look

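Of 27 groups of 4 libraries, 9 genes in 3 groups, 2 had a library far from the other 3 by Dixon's criterion, where chance alone would give about 1 in 20. Both were C1R. STINGX+TGFβ replicate 2 had 149 CPM, a gap to its nearest replicate of 0.938 of the group's range. TGFβ replicate 1 had 200.2 CPM, a gap of 0.945 of the range. C1R-214 held 2071 counts in STINGX+TGFβ replicate 2, against 259 to 331 in its other replicates, and C1R-202 held 4361 counts in TGFβ replicate 1, against 0 to 934. What gave these transcripts their counts in single libraries was not tested.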

How the results depend on the processing

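The number of the 9 genes called was 4 or 5 for STINGX+TGFβ against TGFβ under 10 of 11 alternative settings and 3 in limma on log2(FPKM + 1) with no low filter, where C1R and CD59 were not called. Leaving out each library gave 5 to 5 for STINGX+TGFβ against TGFβ, 7 to 8 for STINGX+TGFβ against control and 5 to 7 for TGFβ against control. Transcripts called for STINGX+TGFβ against TGFβ were 1 with RLE scaling, and those for TGFβ against control were 7 with a replicate block. Leaving out each library, transcripts called ran from 1 to 2, from 10 to 13 and from 5 to 10 in those 3 comparisons, and usage calls from 1 to 2, from 1 to 2 and from 0 to 0. Leaving out TGFβ replicate 1 or 4 gave the 5.

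The uncalled change of STINGX+TGFβ over TGFβ changed sign for C1S (0.10 with library totals alone, 0.093 in limma on log2(FPKM + 0.1), 0.087 in both other limma fits, and -0.13 to 0.055 when leaving out each library, above 0 without STINGX+TGFβ replicate 2 or 3 or TGFβ replicate 3), for CD46 (0.052 with library totals, 0.051 in limma on log2(FPKM + 0.1) and 0.045 in both others) and for CD55 (0.12 with library totals, 0.11 in limma on log2(FPKM + 0.1), 0.088 in both others, and -0.063 to 0.030 when leaving out each library, above 0 without STINGX+TGFβ replicate 3 or TGFβ replicate 1). That of CD46 over control ran from -0.047 to 0.074 when leaving out each library, below 0 without STINGX+TGFβ replicate 1 or control replicate 2. Besides these 19 sign changes, 9 values of single genes came to pass the threshold, 7 no longer passed it and 595 kept direction and side. For STINGX+TGFβ over TGFβ, library totals moved the median of all genes by 0.14. In limma on log2(FPKM + 1) with no low filter it moved by 0.0035, and C1S, CD46 and CD55 were above 0 there as well. The cause of the sign changes was not tested.

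Correlations of same-numbered libraries' deviations ran from -0.04 to 0.05 over 12 pairs, and 2 of 12 libraries correlated best with their own number. With a replicate block 7 genes were called for TGFβ against control in place of 6, CD55 being added (0.20, adjusted p = 0.0389); the other comparisons kept 5 and 7.

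CFI had 45 to 352 counts a library, the fewest of the 9 genes.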
